A study of Mus musculus with 4 samples.

Results

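The keratin genes were examined in mouse gallbladder cells that had been reprogrammed and sorted for an insulin reporter. They are the 50 rows of the deposited expression table, of 20377 in all, whose symbol is Krt followed by a number and at most 1 letter. 6 of them, Krt7, Krt8, Krt18, Krt19, Krt20 and Krt23, formed the simple-epithelial set, and the other 44, mostly keratins of stratified epithelium and hair, were the set they were compared with. All samples belonged to 1 group, named rGBC2, with 4 libraries numbered 1 to 4. The donor mice were 8 weeks old, on a C57BL/6 background, and carried MIP-GFP, a green fluorescent protein reporter driven by an Ins1 promoter fragment. The expanded cells had received the transcription factors Pdx1, Ngn3 (Neurog3), Mafa and PAX6 and compounds that the labels do not name, over 10 days. Cells with an active reporter were then collected by flow cytometry sorting, so the values describe only cells that passed this gate. The labels do not say whether the 4 libraries came from separate animals or cultures, so p-values rest on the spread between these libraries, which may be technical in part. Unreprogrammed gallbladder cells were not analysed here, and no value below says how keratins moved during reprogramming.

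Keratins are the intermediate filament proteins of epithelial cells. Each filament is built from equal parts of an acidic type I chain and a basic type II chain, so that every epithelium needs at least one gene of each type. Single-layered epithelia such as gallbladder, bile duct and gut lining are known for the pair Krt8 and Krt18 with Krt7 and Krt19 in ducts, whereas the basal layer of stratified epithelium uses Krt5 with Krt14 and its upper layers Krt1 with Krt10 or Krt4 with Krt13. Other members build hair and its sheaths.

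The values are RPKM, read counts per unit of transcript length and of sequencing depth, which allow levels of different genes to be compared per length. Estimated depth lay between 21.98 and 33.1 M reads per library, so that 3 reads over 1 kilobase amount to 0.0906 to 0.136 RPKM (counting error only). Replicates 3 and 4 were much more alike than any other pair of libraries. Across genes of at least 1 RPKM the SD of their log2 ratio was 0.19, against 0.59 to 0.85 for the other 5 pairs, although they still differed by more than sampling noise. Replicates 1 and 2 held reads of 4 Y-linked genes, such as Eif2s3y with 48.5 and 44.7 RPKM, and replicates 3 and 4 had none. Differences between these 2 pairs of libraries therefore cannot be told apart from sex of the source or from whatever else the pairs shared, and the spread given below includes them.

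Simple-epithelial keratins made up nearly all keratin transcripts of the sorted cells. Their summed level was 1003, 1412, 1518 and 1529 RPKM in replicates 1 to 4, against 67.85, 70.04, 134 and 124 RPKM for the other 44 keratins together. They thus took 91.9% to 95.3% of summed keratin RPKM, and their sum exceeded that of the others by a factor of 14.7 ± 3.95 (SD, n = 4). The median simple-epithelial keratin lay above the median of the other keratins in 4 of 4 libraries, and the log2(RPKM + 1) medians differed by 7.23 ± 0.16 (SD, n = 4). As a score over chosen genes this difference was given no test. Its size depends on how values near 0 are treated, and it was 10.20 on the log2(RPKM + 0.1) scale and 6.27 with only keratins whose mean was at least 0.1 RPKM (6 simple-epithelial and 12 other keratins). All keratins together took 0.271% ± 0.0330 of the summed RPKM of all genes.

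A test across all genes asked which lay above or below 1 RPKM (limma on log2(RPKM + 1), Benjamini-Hochberg adjustment). Of the 16919 genes not listed at 0 in every library, 65% lay above and 26.1% below. Of the 6 simple-epithelial keratins 4 lay above, none below, and 2 passed in neither direction. Of the 44 other keratins 5 lay above, 29 below, 2 passed in neither direction and 8 were listed at 0 in every library. Against the share of 65% over all genes, the count above was thus low for the other keratins and near it for the simple-epithelial set. The median over the 6 was 162 RPKM, against 0.0331 RPKM for the other keratins and 6.99 RPKM for all genes tested. No member lay near that median, since Krt7, Krt8, Krt18 and Krt19 had means of 86.0 RPKM or more, and Krt23 and Krt20 had means of 3.73 and 0.848 RPKM, below the median of all genes.

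**Figure D1:**
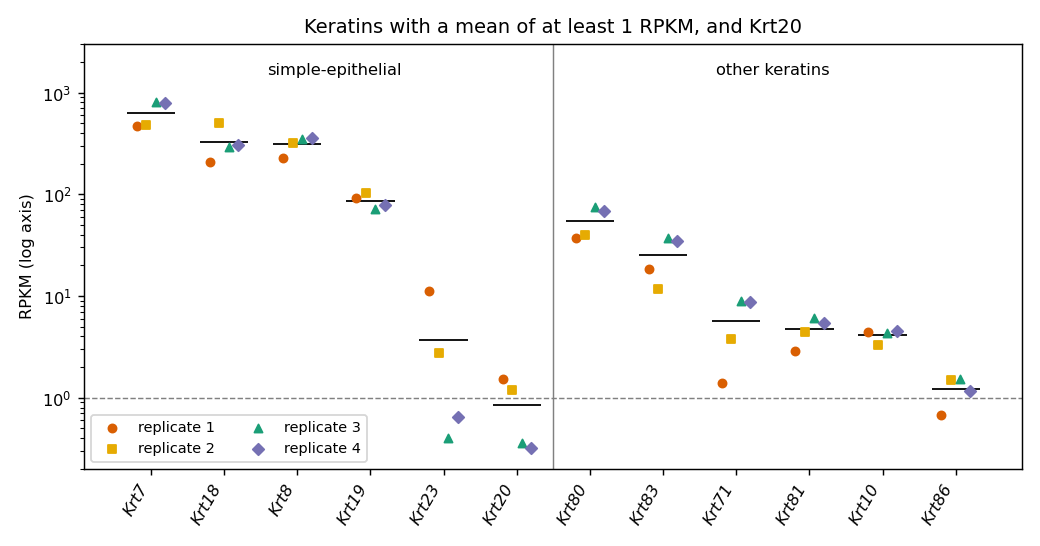
RPKM (log axis) of the 6 simple-epithelial keratins and of the 6 other keratins with a mean of at least 1 RPKM, with 1 point per library, the mean as a black line and 1 RPKM as a dashed line. Krt7, Krt18, Krt8 and Krt19 lie between 72.0 and 802 RPKM in every library, whereas Krt23 and Krt20 lie above 1 RPKM in replicates 1 and 2 and below it in replicates 3 and 4.

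Krt7, a type II keratin typical of ducts and of gallbladder lining, was the most abundant keratin. It was measured at 465.5, 482, 802 and 789 RPKM in replicates 1 to 4 (635 ± 186 RPKM, SD, n = 4) and ranked between 56 and 115 among all genes of each library. Replicates 3 and 4 were both higher than replicates 1 and 2, by a factor of 1.68 between the pair means. Krt7 lies on chromosome 15 from 101242834 to 101258237 on the plus strand of mm9 (all gene coordinates are from the deposited table, in mm9). Its level passed the test above 1 RPKM (limma, adjusted p = 4.45e-07).

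Krt8, the type II chain that appears first in embryonic epithelium, was at 226, 322, 349 and 356.5 RPKM in replicates 1 to 4 (313 ± 60.4 RPKM, SD, n = 4). Replicate 1 was the lowest, and the other 3 libraries lay close together. Krt8 was one of the steadier keratins, with a coefficient of variation of 19.3%, against a median of 19.9% over the 2101 genes with a mean of at least 50 RPKM. Its share of all keratin RPKM varied least, between 21.1% and 21.8%. The gene lies on chromosome 15 from 101827142 to 101834773 on the minus strand, and its level passed the test (limma, adjusted p = 2.59e-07). Of the 50-base windows of its transcript, 29.7% also occur in transcripts of other genes, mainly the pseudogene Krt8-ps, so part of its value depends on how the authors counted reads with several matches, which is not given in the sources used here.

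Krt18, the type I partner of Krt8, was at 209, 501, 295 and 304 RPKM in replicates 1 to 4 (327 ± 124 RPKM, SD, n = 4). Replicate 2 was highest and replicate 1 lowest, so this gene did not follow the split between the pairs of libraries. In replicate 2 Krt18 was the most abundant keratin, whereas Krt7 was in the other 3 libraries. It is the type I keratin that sits in the type II cluster, on chromosome 15 from 101858647 to 101862457 on the plus strand, 23.9 kilobases from Krt8, with the gene starts facing each other. Its level passed the test (limma, adjusted p = 7.35e-07).

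Krt19, the short type I keratin of ducts, which has almost no tail domain, was at 91.0, 103, 72.0 and 77.8 RPKM in replicates 1 to 4 (86.0 ± 13.98 RPKM, SD, n = 4). Replicates 3 and 4 were both lower than replicates 1 and 2, the opposite of Krt7, but the whole range was a factor of 1.43. Its coefficient of variation of 16.3% was the lowest of the 6 simple-epithelial keratins. It lies on chromosome 11 from 100002126 to 100007233 on the minus strand, and its level passed the test (limma, adjusted p = 2.54e-07).

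Krt23 and Krt20 were the low members of the set and had its highest coefficients of variation, 136% and 71.2%. On the log2(RPKM + 1) scale the SD of Krt20, 0.476, was below that of Krt18, 0.518. Krt23, a type I keratin, was measured at 11.15, 2.72, 0.4 and 0.65 RPKM in the order of replicates 1 to 4, and Krt20, the type I keratin known from gut lining and the superficial cells of urothelium, at 1.53, 1.18, 0.36 and 0.32 RPKM. Both were higher in replicates 1 and 2 than in replicates 3 and 4, and Krt23 in replicate 1 was 27.9 times its level in replicate 3. The mean of replicates 3 and 4 was 0.0757 of that of replicates 1 and 2 for Krt23 and 0.251 for Krt20. Neither passed the test in either direction (limma, adjusted p = 0.278 for Krt23 and 0.404 for Krt20). They are close in the type I cluster of chromosome 11, Krt20 from 99289717 to 99299467 and Krt23 from 99339287 to 99354424, both on the minus strand and 39.8 kilobases apart.

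The starts of the 3 most abundant keratins and of Krt23 and Krt20 are shown because these genes differed in level and in their pattern over libraries. The windows hold 250 bases before and 30 after the annotated start, from RefSeq on GRCm38.p6, a later build than that of the table, matched by symbol for 34 of 50 keratins. They are chr15:101412153-101412432 (plus strand) for Krt7, chr15:102004313-102004592 (minus strand) for Krt8, chr15:102027966-102028245 (plus strand) for Krt18, chr11:99493091-99493370 (minus strand) for Krt23 and chr11:99438124-99438403 (minus strand) for Krt20. Capitals mark TATAAA, the core of a TATA box, GGGCGG, a GC box, and TGANTCA, the element known for AP-1, on either strand.
Krt7: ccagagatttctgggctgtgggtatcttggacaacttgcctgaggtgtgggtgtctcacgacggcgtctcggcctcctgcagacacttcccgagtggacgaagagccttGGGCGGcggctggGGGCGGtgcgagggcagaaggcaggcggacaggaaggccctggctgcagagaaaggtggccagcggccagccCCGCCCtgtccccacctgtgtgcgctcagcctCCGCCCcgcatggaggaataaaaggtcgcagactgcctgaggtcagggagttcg
Krt8: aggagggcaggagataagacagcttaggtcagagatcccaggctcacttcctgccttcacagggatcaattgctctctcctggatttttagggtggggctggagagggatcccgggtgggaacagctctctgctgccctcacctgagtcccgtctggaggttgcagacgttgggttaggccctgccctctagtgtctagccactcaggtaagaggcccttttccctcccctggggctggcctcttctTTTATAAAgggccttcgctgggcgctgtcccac
Krt18: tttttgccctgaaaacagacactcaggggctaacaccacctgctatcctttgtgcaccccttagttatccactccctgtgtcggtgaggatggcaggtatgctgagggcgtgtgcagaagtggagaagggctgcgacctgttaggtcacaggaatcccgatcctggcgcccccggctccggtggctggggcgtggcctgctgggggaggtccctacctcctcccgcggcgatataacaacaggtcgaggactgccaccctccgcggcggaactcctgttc
Krt23: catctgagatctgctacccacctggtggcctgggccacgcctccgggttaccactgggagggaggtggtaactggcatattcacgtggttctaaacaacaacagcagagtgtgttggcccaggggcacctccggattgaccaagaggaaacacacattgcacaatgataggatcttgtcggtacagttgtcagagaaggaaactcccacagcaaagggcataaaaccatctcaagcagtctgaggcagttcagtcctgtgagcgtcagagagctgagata
Krt20: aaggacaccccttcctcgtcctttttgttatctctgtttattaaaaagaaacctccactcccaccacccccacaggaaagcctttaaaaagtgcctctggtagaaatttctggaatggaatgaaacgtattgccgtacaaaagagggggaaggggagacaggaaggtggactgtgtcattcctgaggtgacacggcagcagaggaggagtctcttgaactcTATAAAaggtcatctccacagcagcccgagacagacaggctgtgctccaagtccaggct
The Krt7 window held 4 matches to GGGCGG and had 65.7% G and C, the Krt20 window 1 match to TATAAA and 49.3% G and C. In the Krt8 window TATAAA lies at the annotated start itself and its match on the other strand overlaps it, and the windows of Krt18 and Krt23 held none of the 3 elements. No window was matched for Krt19, nor for Krt80, Krt83 and Krt81 among the other keratins, so the counts that follow leave these genes out. TATAAA was found in 2 of 5 windows of simple-epithelial keratins and in 16 of 29 of other keratins, against 13.1% of 32841 RefSeq promoter windows of the same length. GGGCGG was found in 1 of 5 and 1 of 29, against 34.7%, and TGANTCA in 0 of 5 and 1 of 29, against 7.46%. Elements bound by the delivered factors were counted as well. CANNTG, the E-box bound by proteins such as Neurog3, was in 4 of 5 and 23 of 29 windows, against 70.1%, and TAAT, the core bound by Pdx1 and other homeodomain factors, in 1 of 5 and 27 of 29, against 56.8%. TGCTGA, part of the element bound by Maf proteins, was in 1 of 5 and 8 of 29, against 18.2%. These counts describe letters in the windows and say nothing about binding.

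Within the libraries, 5 pairs of simple-epithelial keratins were compared on the log2(RPKM + 1) scale with an exact permutation test that flips signs, two-sided and adjusted over the 5 pairs. With 4 libraries the test cannot give a p under 0.13, so no pair could pass 0.05, and the values and their SD carry the comparison. Krt8 and Krt18, the partners of one filament, differed by -0.01 ± 0.42 (SD, n = 4, exact permutation p = 1). Krt8 was higher in replicates 1, 3 and 4, by 0.11, 0.24 and 0.23, and lower in replicate 2, by a difference of -0.63. Without replicate 2 the mean difference was 0.20 and of the opposite sign, so the order of these neighbours in level is not settled.

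Krt7 exceeded Krt19 in 4 of 4 libraries, with a log2 difference of 2.83 ± 0.65 or 7.13-fold (exact permutation p = 0.13, adjusted 0.156). Replicates 1 and 2 gave 2.34 and 2.21, and replicates 3 and 4 gave larger differences of 3.46 and 3.33. Krt7 also exceeded Krt8 in 4 of 4 libraries, by 0.99 ± 0.28 or 1.99-fold (exact permutation p = 0.13, adjusted 0.156). Krt19 was below Krt18 in 4 of 4 libraries, with a difference of -1.86 ± 0.47, which makes Krt18 3.62-fold higher (exact permutation p = 0.13, adjusted 0.156). Krt20 was below Krt23 in 4 of 4 libraries, but the mean difference of -0.85 ± 0.99 was smaller than its SD (exact permutation p = 0.13, adjusted 0.156). In replicate 3 these 2 genes were nearly equal, at 0.36 and 0.4 RPKM (difference -0.04), so their order there is not settled.

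**Figure D2:**
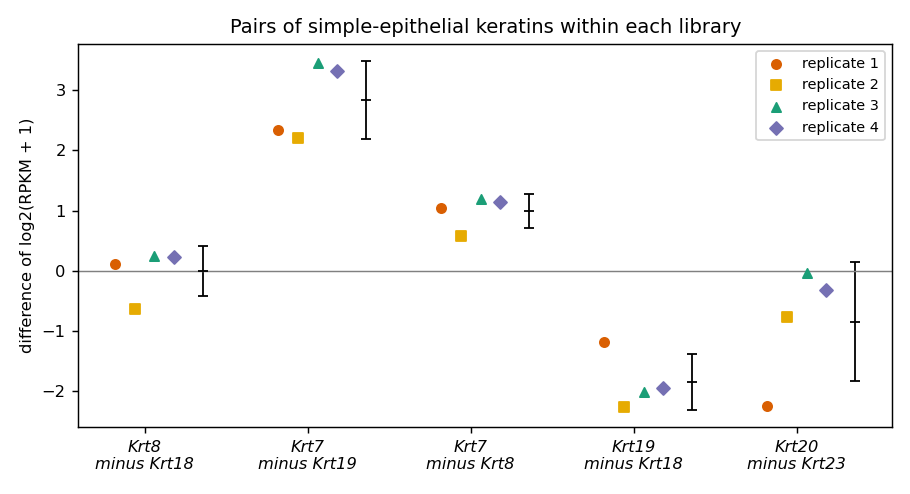
Difference in log2(RPKM + 1) between 2 simple-epithelial keratins of the same library, first minus second, with 1 point per library and the mean ± SD of 4 libraries in black. Krt8 minus Krt18 lies on both sides of 0, whereas the other 4 pairs keep 1 direction in 4 of 4 libraries. Krt20 minus Krt23 is close to 0 in replicate 3, at -0.04.

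Transcripts of type II keratins outweighed those of type I. The 22 type II genes summed to 752, 868, 1280 and 1264 RPKM in replicates 1 to 4, against 319, 614, 373 and 389 RPKM for the 28 type I genes. The ratio was 2.36, 1.41, 3.43 and 3.25, so that type II was higher in 4 of 4 libraries and least so in replicate 2, where Krt18 was highest. Krt7 alone took 43.5%, 32.5%, 48.5% and 47.8% of keratin RPKM in replicates 1 to 4, and Krt18 took 19.5%, 33.8%, 17.8% and 18.4%. These are transcript levels in pooled cells. Fewer cells with a transcript and less of it per cell cannot be told apart in them.

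**Figure D3:**
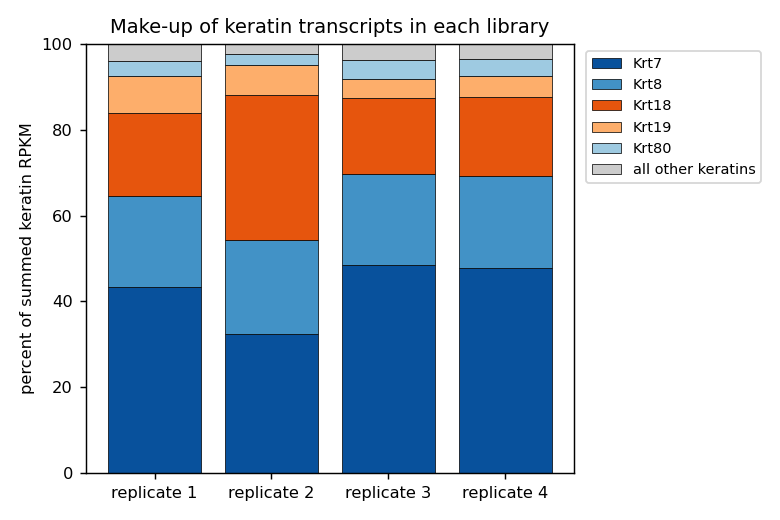
Percent of the summed keratin RPKM of each library taken by Krt7, Krt8, Krt18, Krt19, Krt80 and all other keratins, stacked to 100. Type II genes (blue) take most of each bar, and the Krt18 share is 33.8% in replicate 2 against 17.8% to 19.5% in the other 3 libraries.

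Among the 44 other keratins, 5 lay above 1 RPKM, and 4 of these are type II genes of chromosome 15. Krt80, a type II keratin found in many epithelia, was at 36.8, 39.6, 74.1 and 67.9 RPKM in replicates 1 to 4 (54.6 ± 19.1 RPKM, SD, n = 4, limma adjusted p = 3.21e-06). Replicates 3 and 4 were both higher than replicates 1 and 2, as for Krt7. Krt80 stayed between 7.91% and 9.24% of Krt7 in the 4 libraries. It is the gene next to Krt7 in map order, from 101180002 to 101200556 on the minus strand, 42.3 kilobases away.

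On the other side of Krt7 lie keratins of the hair shaft. The gene listed as Krt83 (NM_001003668, which RefSeq on GRCm38.p6 names Krt87) was at 18.3, 11.8, 37.4 and 34.5 RPKM (25.5 ± 12.4 RPKM, SD, n = 4, limma adjusted p = 6.34e-05), again higher in replicates 3 and 4. Krt81, another hair shaft keratin, was at 2.86, 4.47, 6.12 and 5.47 RPKM (limma, adjusted p = 0.000801). Krt86, the third, was at 0.68, 1.48, 1.52 and 1.17 RPKM, on either side of 1 RPKM, and missed the threshold (limma, adjusted p = 0.374). Their levels were lower the farther they lay from the end of Krt7, which is 3.68 kilobases from Krt83, 31.3 kilobases from Krt81 and 45.7 kilobases from Krt86. Krt83 and Krt81 run against Krt7, on the minus strand, and Krt83 was between 2.44% and 4.67% of Krt7.

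The library kit does not mark strand, so reads of Krt7 that extend past its end and reads of Krt83 could not be told apart where they meet, and their part in these values was not tested. Krt15, 4.86 kilobases from Krt19, was at 0.03, 0.03, 0 and 0.02 RPKM. That pair is unlike Krt7 and Krt83. Krt15 and Krt19 lie on the same strand, and Krt19 had a mean of 86.0 RPKM against 635 RPKM for Krt7. It therefore says nothing about reads between Krt7 and Krt83. The hair shaft keratins also share sequence with each other. Of the 50-base windows of the transcripts, 35.3% of Krt83, 43.5% of Krt81 and 43.3% of Krt86 occur in other genes. For the gene listed as Krt83, matches to any gene annotated as Krt83 were left out as its own, so its 35.3% may be too low. Among the genes counted, Gm49425 shared most with it, followed by Krt81 and Krt86. Krt81 and Krt86 shared most with each other, so the separate values of these hair shaft keratins are uncertain.

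Krt71, a type II keratin of the inner root sheath of hair, was at 1.38, 3.78, 8.84 and 8.75 RPKM in replicates 1 to 4 (5.69 ± 3.72 RPKM, SD, n = 4, limma adjusted p = 0.0118). The mean of replicates 3 and 4 was 3.41 times that of replicates 1 and 2, and the gene shares 1.97% of its windows with other genes. Its usual type I partners of the root sheath were low. Krt25 was at 0.09, 1.11, 0.37 and 0.43 RPKM, Krt27 at 0, 0.07, 0 and 0.02 RPKM, and Krt28 was listed at 0 in every library. Krt25 lay below 1 RPKM (limma, adjusted p = 0.0304), but without replicate 1, 3 or 4 it did not pass (adjusted p = 0.103, 0.0673 and 0.0598).

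Krt10, the type I keratin of the upper epidermis, was the only type I gene of the 44 above 1 RPKM, at 4.43, 3.28, 4.37 and 4.52 RPKM (4.15 ± 0.583 RPKM, SD, n = 4, limma adjusted p = 0.000377). Its epidermal type II partners were not at that level. Krt1 was at 0.08, 0.06, 0.04 and 0.08 RPKM and below 1 RPKM (limma, adjusted p = 3.32e-07), and Krt2 was listed at 0 in every library.

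**Figure D4:**
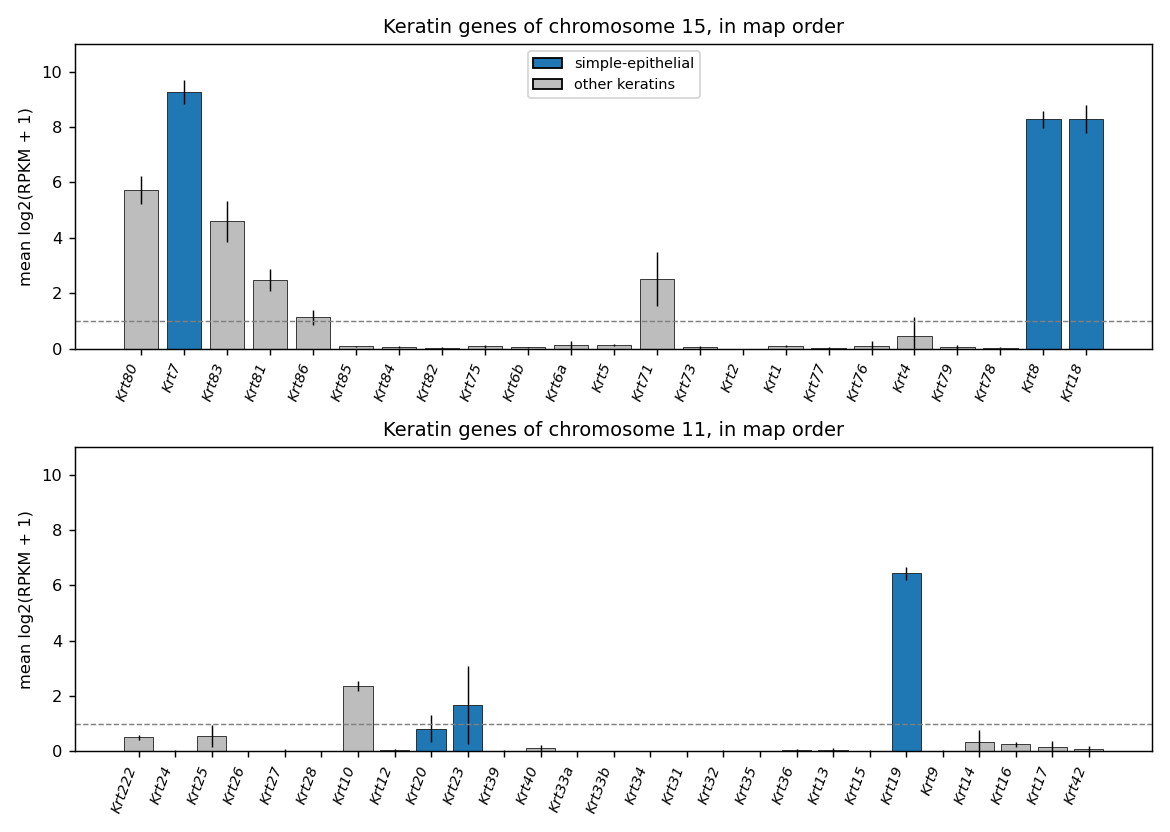
Mean log2(RPKM + 1) of each of the 50 keratins, with the SD of 4 libraries as error bars, in map order on chromosomes 15 and 11, simple-epithelial keratins in blue and the others in grey, with the dashed line at 1 RPKM. On chromosome 15, 7 of 23 genes lay above 1 RPKM in the test and stand at both ends of the cluster with Krt71 between, and on chromosome 11, Krt19 and Krt10 were the 2 of 27.

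Most keratins of stratified epithelium other than Krt10 were low. All 3 basal-layer keratins lay below 1 RPKM. Krt5 was at 0.06, 0.14, 0.08 and 0.11 RPKM, its partner Krt14 at 0.9, 0.35, 0 and 0 RPKM, and Krt15 at no more than 0.03 RPKM (limma, adjusted p = 8.07e-07, 0.0107 and 2.39e-07). At the estimated depth the Krt5 values amount to about 22.3 reads over the 4 libraries. All 4 keratins induced in wounds and rapidly growing epidermis lay below 1 RPKM as well. Krt16 was at 0.22, 0.3, 0.15 and 0.14 RPKM and Krt17 at 0.29, 0.25, 0 and 0 RPKM.

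Of the 4 keratins of moist stratified linings, 3 lay below 1 RPKM. Krt4 was at 0.29, 1.77, 0 and 0.02 RPKM and missed the threshold (limma, adjusted p = 0.0974), with replicate 2 far above the others, and without replicate 2 it lay below (adjusted p = 0.000807). Its partner Krt13 was at 0.12, 0, 0 and 0.03 RPKM. Krt12 of the cornea was at 0.08, 0, 0 and 0.02 RPKM. Krt222 was at 0.38, 0.36, 0.56 and 0.4 RPKM and below 1 RPKM (limma, adjusted p = 0.000164). Of the 15 measured hair shaft keratins, 2 lay above, 7 below, 1 in neither direction and 5 were listed at 0. Of the 8 measured keratins grouped here under the inner root sheath and companion layer, 1 lay above, 5 below and 2 were listed at 0. Krt79, whose place in that group is less certain, was among the 5 below. In all, the 29 keratins below 1 RPKM had means between 0.01 and 0.5 RPKM, and 26 of them were over 0.3 RPKM in no library.

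The pairs of libraries were then compared for every keratin. Of the 42 keratins not listed at 0 throughout, 8 were higher in both of replicates 3 and 4 than in replicates 1 and 2, against 24.2% of all genes tested, and 13 were lower, against 38.5%. That is 19.05% and 31.0% of the keratins, neither above the share of all genes. The 8 higher were the type II genes Krt7, Krt8, Krt80, Krt83, Krt81, Krt84 and Krt71 and the type I gene Krt222. The 13 lower were the type I genes Krt19, Krt20, Krt23, Krt14, Krt15, Krt16, Krt17 and Krt42 and the type II genes Krt4, Krt73, Krt75, Krt76 and Krt79. Some of these directions rest on few reads. At the estimated depth Krt84, Krt15, Krt73, Krt79 and Krt42 had about 8.67, 3.48, 5.44, 7.81 and 10.8 reads over the 4 libraries. By type, 1 of 21 type I genes was higher and 8 lower, and 7 of 21 type II genes were higher and 5 lower. This difference was not tested, and its counts include the genes with few reads. When libraries were scaled to equal sums of RPKM, Krt8 and Krt222 left the higher genes and 6 remained, while Krt6a joined the lower genes, then 14. When libraries were scaled to equal upper quartiles, Krt10 joined the 8 higher genes. Ins1, whose promoter drives the sorted reporter, was also higher in replicates 3 and 4, with 107, 222, 481 and 523 RPKM in replicates 1 to 4. Its part in the keratin values was not tested.

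Proteins that anchor keratin filaments were examined as partners of the keratins. Of 14 desmosome genes, 9 lay above and 5 below 1 RPKM, near the shares of 65% and 26.1% over all genes tested, with a median of 27.7 RPKM against 6.99 RPKM over all genes. Perp, a desmosome-associated membrane protein, stood at 830 ± 155 RPKM, Dsp, the desmoplakin that binds keratin filaments, at 152 ± 39.0 RPKM, Jup, plakoglobin, at 72.0 ± 19.1 RPKM and Pkp4, a plakophilin, at 54.6 ± 17.1 RPKM (SD, n = 4). Desmosomal cadherins differ between kinds of epithelium. Dsg2 and Dsc2, which simple epithelia use, were at 49.5, 48.1, 28.0 and 23.1 RPKM and at 41.3, 41.4, 34.1 and 28.0 RPKM in replicates 1 to 4, while Dsg1a, Dsg3, Dsg4, Dsc1 and Dsc3 of stratified epithelium were the 5 below. The plakophilin Pkp1, also of stratified epithelium, went the other way. It lay above 1 RPKM, at 1.46, 3.71, 6.83 and 7.43 RPKM (limma, adjusted p = 0.00929).

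Of 9 measured plakins and other keratin linkers, 7 lay above and 2 below, against 65% and 26.1% of all genes tested, led by Ppl, periplakin, at 31.3 ± 14.1 RPKM, Dst, dystonin, at 23.9 ± 10.8 RPKM, Plec, plectin, at 16.6 ± 3.50 RPKM and Macf1 at 15.9 ± 6.85 RPKM (SD, n = 4), with Trim29 and Eppk1 below. Of 9 hemidesmosome genes, 8 lay above (65% of all genes tested), including Cd151 at 146 ± 37.3 RPKM and the laminin chain Lamb3 at 119 ± 52.2 RPKM, and Col17a1, a collagen of the epidermal junction, was the one below at 0.0375 ± 0.0206 RPKM.

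**Figure D5:**
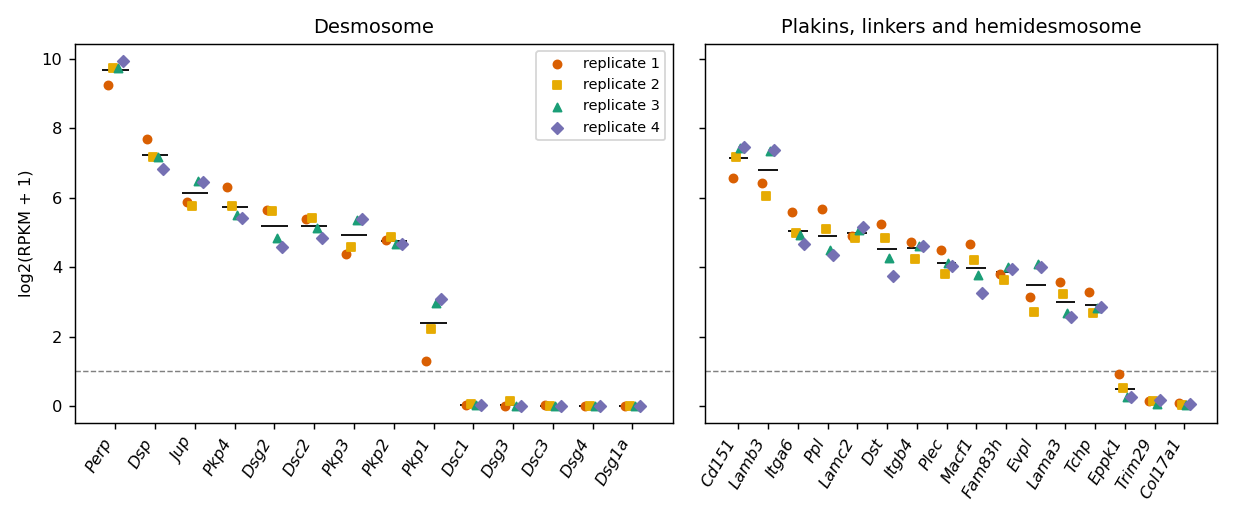
Log2(RPKM + 1) of desmosome genes (left) and of plakins, linkers and hemidesmosome genes (right), ordered by mean RPKM, with 1 point per library, the mean as a black line and 1 RPKM as a dashed line. Dsg2 and Dsc2 lie well above the line, and Dsc1, Dsg3, Dsc3, Dsg4 and Dsg1a lie at or near 0.

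Among 16 regulators of epithelial genes 14 passed above 1 RPKM, set against 65% over all genes tested. They included Ehf at 61.1 ± 37.3 RPKM, Grhl1 at 57.8 ± 11.9 RPKM, Esrp1 at 42.3 ± 2.59 RPKM and Elf3 at 38.8 ± 5.14 RPKM (SD, n = 4). Trp63, the master regulator of basal stratified epithelium, had 0.02 RPKM in replicate 4 and was listed at 0 in the other 3. Of 11 epithelial surface genes 10 lay above, set against the same 65%, with Epcam, an adhesion molecule of simple epithelium, at 201 ± 33.7 RPKM, Spint2 at 546 ± 93.7 RPKM and Spint1 at 108 ± 15.8 RPKM, and Prom1 at 384, 1029, 278 and 272 RPKM in replicates 1 to 4.

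Markers of other cell types were checked beside the keratins, and their counts are to be read against the same 65% above and 26.1% below. Of 11 keratinocyte markers 3 lay above and 8 below, with a summed level of 11.99 to 18.5 RPKM per library. Sfn, Krt10 and Lor were the 3 above, and Krt5, Krt14, Krt1 and Trp63 had the values given above. This count is not a separate check on the keratins. Krt5, Krt14, Krt1 and Krt10 are themselves among the 44 other keratins, and Trp63, Dsg3, Dsc3, Col17a1, Ivl and Lor also belong to other lists used here. The remaining marker was Sfn, with a mean of 6.83 RPKM. Of 8 mesothelial markers 2 lay above, 5 below and 1 was listed at 0, with a sum of 21.4 to 81.8 RPKM. Msln, mesothelin, gave most of that sum, at 18.0, 52.5, 73.7 and 78.8 RPKM, while Wt1 and Upk3b were at most 0.09 RPKM. Of 10 hepatocyte markers 4 lay above, 4 below and 2, Fgb and Serpina1a, were listed at 0 (sum 50.6 to 101 RPKM). The 4 above were Alb at 2.63, 23.0, 30.3 and 35.2 RPKM, Apoa2 at 23.9 ± 10.0 RPKM, Ttr at 18.0 ± 2.19 RPKM and Hnf4a at 14.4 ± 1.99 RPKM (SD, n = 4). All 8 islet endocrine markers lay above, with a sum of 2189 to 12632 RPKM. Of the 7 fibroblast markers none lay above and 4 below (sum 2.30 to 6.13 RPKM), of the 6 smooth muscle markers 2 lay above and 4 below (5.14 to 22.0 RPKM), of the 6 endothelial markers none lay above and 5 below (1.04 to 1.31 RPKM), and of the 7 immune markers 2 lay above and 4 below (131 to 184 RPKM, mostly Cd68). The part of other cells in the keratin values was otherwise not tested.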

How the data were processed

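The deposited table holds RPKM values that the authors rounded to 2 decimals, with 20377 genes. Per the submitters' processing notes, the tools included Bowtie and CASAVA 1.8.2, and the build was mm9. How reads were counted, with which strand setting, and what was done with multiply matching reads is not given in the sources used here. The table has 6 further per-sample columns that match no sample of this series and were not used. Gene starts were shifted by 1 base to count from 1. Depth was estimated by fitting the RPKM of 1 read to low values, above 0 and below 0.5 RPKM, of short olfactory receptor genes. Of 993 such genes, 32, 26, 14 and 17 had a usable value in replicates 1 to 4, so the estimates rest on few values.

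Levels were tested against 1 RPKM with limma 3.58.1 in R 4.3.3 on log2(RPKM + 1), with a mean-variance trend, two-sided, at an adjusted p of 0.05, and the procedure was tested on simulated data. Named genes were the 6 simple-epithelial keratins, every other keratin above 1 RPKM in the test or in the mean, the next 3, and the highest and lowest of each other list. A few further genes (the cadherins, Pkp1, partners of named keratins, and keratins of the stratified groups) were named after their values were seen. The members and lists were chosen with earlier results of these data known. Shared sequence used GENCODE M21 transcripts, matched by RefSeq identifier for 49 of 50 keratins. Alternatives were another pseudocount, a filter at a mean of 0.1 RPKM, no trend, other scalings and leaving out libraries.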

Additional observations from a re-analysis of the deposited data

Results flagged for a closer look

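Of 105 values checked over 4 libraries, 20 had 1 library set apart from the other 3 by more than Dixon's criterion for 4 values. Replicate 2 was that library in 11 of them, replicate 1 in 5, replicate 4 in 4 and replicate 3 in 0. A gene listed at 0 in 3 libraries is flagged by any value above 0 in the remaining one. All flags of replicate 4 and several of replicate 2 were of this kind. The rate of about 1 in 20 groups by chance holds for normally spread values, so it cannot be set against these counts. Among keratins, replicate 2 was low for Krt10 at 3.28 RPKM, against 4.37 to 4.52 RPKM in the others, high for Krt4 at 1.77 RPKM, against 0 to 0.29 RPKM, and low for the difference of Krt8 minus Krt18 at -0.63 (log2), against 0.11 to 0.24.

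Replicate 2 was also high for Lor at 7.75 RPKM (others 1.59 to 2.07 RPKM), Prom1 at 1029 RPKM (272 to 384 RPKM) and Wt1 at 0.08 RPKM (0 to 0.01 RPKM). Replicate 1 was low for Ins2 at 1091 RPKM (3704 to 4240 RPKM) and high for Cd68 at 167 RPKM (126 to 130 RPKM), Pdgfra at 3.12 RPKM (0.87 to 1.06 RPKM), Col1a1 at 1.34 RPKM (0.47 to 0.54 RPKM) and Thy1 at 1.06 RPKM (0.11 to 0.22 RPKM). The other 9 values are genes listed at 0 in 3 libraries. They are Dsg4 and Dsg1a at 0.01 RPKM each, Lce1a1 at 0.07 RPKM, Acta2 at 0.09 RPKM and Cdh5 at 0.05 RPKM in replicate 2, and Trp63 and Cyp2e1 at 0.02 RPKM each, Col3a1 at 0.01 RPKM and Emcn at 0.06 RPKM in replicate 4.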

How the results depend on the processing

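The counts of simple-epithelial keratins above 1 RPKM and of other keratins above it stayed within a factor of 1.5 under every alternative run. The median difference between simple-epithelial and other keratins was 7.16 to 7.29 when 1 library was left out, 10.20 with a pseudocount of 0.1 and 6.27 with the filter at a mean of 0.1 RPKM. Krt8 minus Krt18 reversed to 0.24 in replicates 3 and 4 alone, and lay between -0.10 and 0.20 with 1 library left out; the other 4 pairs kept their direction under each alternative run. The filter tests fewer genes, and with it the counts below 1 RPKM were 5 for other keratins, 0 for desmosome genes, 1 for plakins and linkers, 0 for hemidesmosome genes, 4 for cornified envelope genes, 0 for epithelial regulators, and 2, 3, 2, 1, 1, 1 and 2 for keratinocyte, mesothelial, hepatocyte, fibroblast, smooth muscle, endothelial and immune markers. With 1 library left out, desmosome genes below 1 RPKM numbered 2 to 5, epithelial regulators below it 0 to 1, fibroblast markers below it 2 to 4 and cornified envelope genes above it 2 to 3, against 4 with all libraries. The lowest desmosome count came without replicate 2, the only library with Dsg1a, Dsg3 and Dsg4 above 0, and the lowest regulator count without replicate 4, the only one with Trp63 above 0, so these genes were then no longer tested. The lowest counts came without replicate 4 for fibroblast markers, of which Col3a1 was above 0 in that library alone, and without replicate 1 or 4 for the cornified envelope; the cause of the rest was not tested. Scaling to equal upper quartiles and averaging replicates 3 and 4 were chosen after seeing the data. The averaging was run for the median difference and the pairs only, and no count above or below 1 RPKM was checked with it. No paired analysis was possible because the labels give a single group. Depth limits the low keratins, many of which rest on a few reads.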

Other observations

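Other intermediate filament genes were also measured in the sorted cells. Of 16 measured, 11 lay above 1 RPKM, 4 below and 1 in neither direction (limma, Benjamini-Hochberg adjustment over all genes), near the shares of 65% above and 26.1% below over all genes tested. The neurofilament chains Nefl, at 61.9 ± 7.38 RPKM, and Nefm, at 37.5 ± 11.2 RPKM, and the lamins Lmna, at 59.8 ± 8.18 RPKM, and Lmnb2, at 18.0 ± 3.11 RPKM, led them (SD, n = 4). Nefl thus lay near Krt80 in level. Vim, the filament protein of mesenchymal cells and of many cultured epithelial cells, had 1.17, 0.29, 0.31 and 0.46 RPKM in the 4 libraries, and Des, that of muscle, at 0.278 ± 0.155 RPKM.

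The cornified envelope, the protein shell of the outer epidermis, was represented by single genes. Of 15 measured, 4 lay above 1 RPKM, 7 below and 4 were listed at 0, against the same shares over all genes. Sprr1a, a small proline-rich protein that is also induced by injury in other tissues, had levels of 5.65, 35.9, 16.7 and 16.8 RPKM in replicates 1 to 4, with Sbsn at 5.85, 12.4, 3.83 and 3.70 RPKM. Lor was at 2.04, 7.75, 1.59 and 2.07 RPKM and Cdsn at 1.57, 2.49, 1.46 and 1.16 RPKM. Replicate 2 was highest for all 4 of these genes.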
